A study of Mus musculus with 10 samples.

Results

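The Myc and Max network is described here through 8 genes: Myc, Max, Mxd1, Mxd3, Mxd4, Mxi1, Mnt and Mga. The rule takes the genes by name and uses no measured value, though the set was proposed with earlier results of these data known, and all 8 were found among the 17053 genes of the deposited table. All 8 also passed the filter on low counts that left 12218 genes for testing. The samples were NIH-3T3 cells, an established line of mouse fibroblasts, labelled wild type, with 2 libraries in each of 5 groups, called replicates A and B. One group had no treatment and one received uridine at 800 µM over 2 h. Each of the 3 remaining groups received 4-thiouridine (4sU), a uridine analogue that enters RNA made during the treatment, at the same dose and for the same time. RNA of the group called 4sU was sequenced without chemical conversion. RNA of the SLAM group was converted with iodoacetamide (SLAM-seq) and RNA of the TUC group with osmium tetroxide and an ammonium salt (TUC-seq), so that labelled positions are read as a changed base. Separate cultures are not stated for the replicates, so a p-value here reflects the spread among samples that may differ only technically.

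Myc is a basic helix-loop-helix leucine zipper transcription factor that binds DNA as a heterodimer with Max, mostly at E-box elements, and drives genes of ribosome production, nucleotide synthesis and the cell cycle. The Mxd proteins, Mxi1 and Mnt compete for Max and recruit the Sin3 corepressor to similar elements. Mga also pairs with Max, and is a very large protein that belongs to a Polycomb complex. In fibroblasts Myc is an immediate-early gene whose messenger RNA is known to be short-lived.

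The start-site windows of these genes are shown because Myc and Max bind the E-box. RefSeq windows of 300 bases on the GRCm38.p6 build ran from 250 bases before to 50 bases after an annotated start. They were given for 7 of the 8 members, and none was given for Myc. The palindromic E-box CACGTG, which reads the same on both strands, lay in a window of 3 members, as did 8.1% of the 27025 genes given a window. The matches are printed on the gene's strand, 5′ to 3′, with the E-box in capitals, at chr12:76962246-76962263 (minus strand) for Max, chr5:34187912-34187941 (minus strand) for Mxd4 and chr11:74830789-74830818 (plus strand) for Mnt.
Max: ggtgagcccggtCACGTG
Mxd4: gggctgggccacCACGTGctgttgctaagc
Mnt: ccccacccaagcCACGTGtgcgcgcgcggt
Relative to the start, the E-box began at position -3 in Max, -219 in Mxd4 and -123 in Mnt. The windows of Mxd1, Mxd3 and Mga, and all 3 windows of Mxi1, did not hold these letters. A match is a description of the sequence and was not tested for binding.

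Libraries held between 27094222 and 33785682 gene counts. All 10 fibroblast markers averaged 1 CPM or more, and summed to between 17300 and 25740 CPM per library. CPM is a gene's counts relative to its library's total, also scaled with TMM factors except for these cell markers. Of markers of other cells, 0 of 3 epithelial and 0 of 5 endothelial genes in the table reached 1 CPM, whereas 2 of 4 leukocyte and 1 of 3 adipocyte or muscle genes did. Replicates of one letter moved together in every group: across genes, the difference of A from B in one group correlated with that in another at an r of 0.584 to 0.69, so the letters were taken to pair the libraries. Among the members, B was above A in 5 of 5 groups for Mxd1, Mxd4, Mnt and Mga, and below A in all 5 for Myc and Mxi1. The median difference ran from -0.29 for Mxi1 and -0.20 for Myc to 0.57 for Mnt on the log2 scale. Each comparison was therefore fitted without the letter, which is the primary test, and with the letter as a block.

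Per kilobase of the deposited gene length, Max (41.9 ± 2.5 CPM per kb, SD, n = 2) and Myc (37.7 ± 6.4) were the most abundant members in untreated cells, and their levels did not differ beyond the replicate spread. Mnt followed at 12.03 ± 2.59 CPM per kb and Mga at 7.10 ± 0.39. Mxd4 (5.14 ± 1.14), Mxi1 (3.91 ± 0.35) and Mxd3 (3.11 ± 0.01) came next, and both Mxd4 libraries (4.33 CPM per kb and 5.94 CPM per kb) lay above both Mxi1 libraries (4.16 CPM per kb and 3.67 CPM per kb). Mxd1 was lowest at 0.815 ± 0.161 CPM per kb, which placed it at percentile 13.9 of all tested genes, against 86.7 for Max and 85.1 for Myc. Max, the shared partner, stood at or above each of its partners on this scale.

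**Figure D1:**
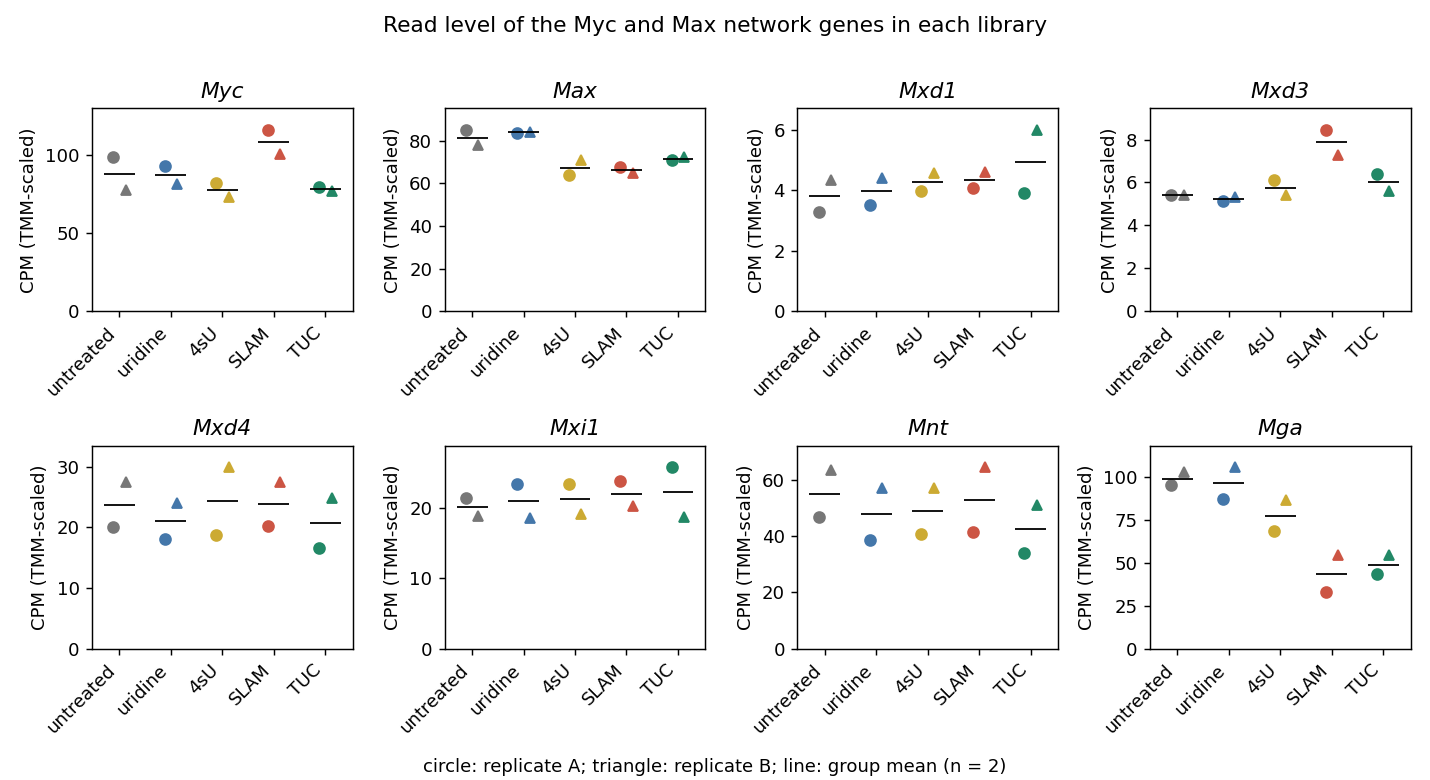
CPM of each member in every library, with 1 marker shape per replicate letter, a black line at the mean of each group of 2, and the 5 groups along the horizontal axis; each panel has its own vertical axis starting at 0. Max and Mga lie lower in all 6 libraries with 4sU than in the 4 without, and Myc is highest in the 2 SLAM libraries.

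Without the letter, 0 of the 8 members passed an adjusted p (edgeR quasi-likelihood test, Benjamini-Hochberg over all tested genes) of 0.05 in any of 6 comparisons. The background was similarly low: the share of all tested genes called was 0% for uridine against untreated, 0.164% for 4sU against untreated, 0.254% for 4sU against uridine, 0.344% for SLAM against 4sU, 0% for TUC against 4sU and 0% for TUC against SLAM. The members with an unadjusted p under 0.05 numbered 0, 1, 1, 3, 1 and 2 in that order. DESeq2, run on the same counts, called 1 member in 1 comparison, Mga lower in SLAM than in 4sU (log2 fold change -0.82, adjusted p = 0.0304), and none in the others. DESeq2 called 5.67% of all genes in that comparison, and 0%, 1.97%, 2.25%, 0.123% and 1.5% for uridine against untreated, 4sU against untreated, 4sU against uridine, TUC against 4sU and TUC against SLAM.

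With the letter as a block, 0 members were called for uridine against untreated, where 0.00818% of all genes were. Without the letter, the log2 fold changes of the 8 genes with uridine lay between -0.20 (Mnt) and 0.06 (Mxd1). Max and Mga were called lower in 4sU than in untreated cells (2 of 8, against 19.9% of all genes) and than in uridine-treated cells (2 of 8, against 19.7%). In SLAM against 4sU, 3 of 8 were called (Myc and Mxd3 higher, Mga lower), against 41.6% of all genes. For TUC against 4sU, 3 of 8 were called (Mga, Mxd4 and Mnt lower), against 25.8%. In TUC against SLAM, 3 of 8 were called (Myc, Mxd3 and Mnt lower), against 20.1%. Over 8 genes these counts do not set the network apart from the background, and the comparisons share libraries and are not independent of one another.

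**Figure D2:**
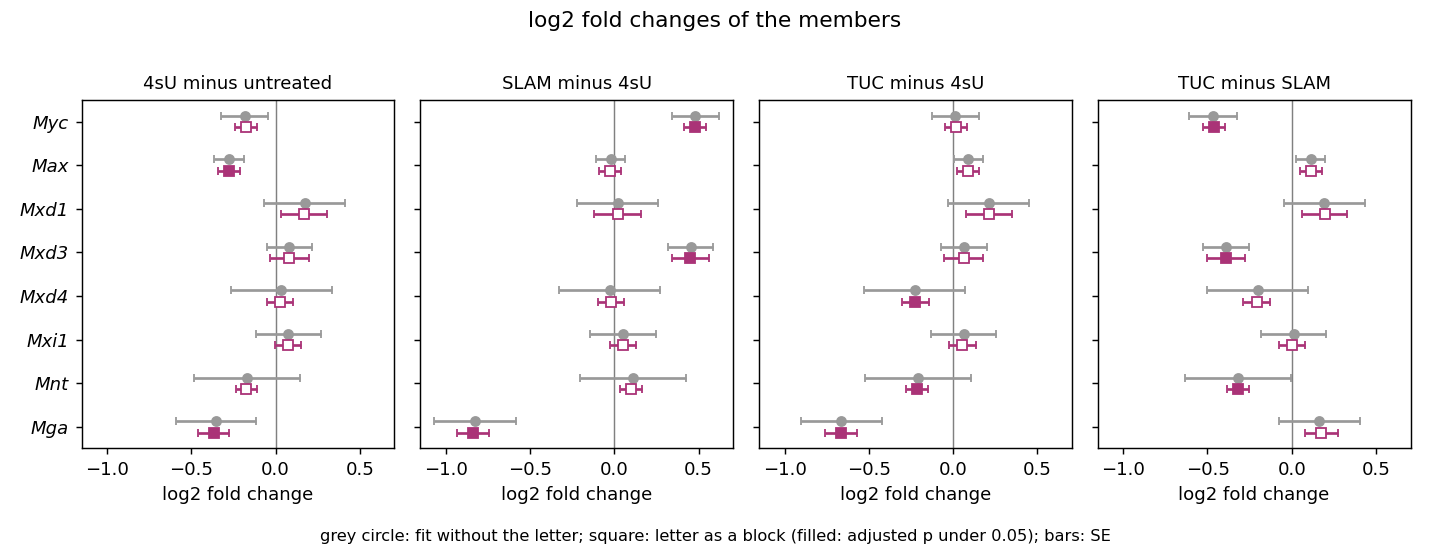
Log2 fold change of each member in 4 of the comparisons, with the standard error as bars; grey circles are from the fit without the letter, squares have the letter as a block, and filled squares passed an adjusted p of 0.05. Mga lies lowest in both conversions against 4sU, and Myc lies above 0 in SLAM against 4sU and below 0 in TUC against SLAM.

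Myc, the activator of the network, was at 98.8 CPM and 77.6 CPM in untreated A and B, 93.4 CPM and 81.5 CPM with uridine, and 82.3 CPM and 73.1 CPM with unconverted 4sU. Its SLAM libraries were the highest of all 10, at 116 CPM and 101 CPM, while its TUC libraries, at 79.8 CPM and 77.2 CPM, lay among the 4sU ones. The SLAM libraries did not overlap the 4sU or the TUC ones, whereas the uridine and 4sU groups overlapped the untreated group. The share of all tested genes with such an order was not counted. With the letter as a block, 20% of all tested genes were called higher in SLAM than in 4sU. Myc was 1.40-fold higher in SLAM than in 4sU (log2 fold change 0.48 ± 0.14, SE, n = 2 per group), with an edgeR adjusted p of 0.142 without the letter and 3.6e-05 with it. The log2 ratio was 0.50 in replicate A and 0.46 in replicate B. Against SLAM, TUC was 1.38-fold lower (log2 fold change -0.47 ± 0.14), with an edgeR adjusted p of 0.352 without the letter and 1.8e-04 with it. Both calls with the letter held when any 1 of the 4 libraries was left out. For 4sU against untreated cells the log2 fold change was -0.18 ± 0.14 (edgeR adjusted p 0.827, and 0.0632 with the letter). With the letter it was -0.18 over all libraries, -0.27 without untreated B and -0.08 without untreated A.

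Max, the obligate partner, was at 84.9 CPM and 78.0 CPM in untreated cells and 83.8 CPM and 84.0 CPM with uridine. It was at 63.7 CPM and 70.8 CPM with unconverted 4sU, 67.5 CPM and 64.8 CPM after SLAM, and 71.1 CPM and 72.1 CPM after TUC. All 6 libraries with 4sU lay below all 4 without it, an ordering that was noticed after the values were seen and that 11.8% of all tested genes also show. Max was 1.21-fold lower in 4sU than in untreated cells (log2 fold change -0.28 ± 0.09; edgeR adjusted p 0.327 without the letter and 0.00678 with it). It was 1.25-fold lower in 4sU than with uridine (-0.32 ± 0.09; edgeR adjusted p 0.22, and 0.00244 with the letter). These calls rest on single libraries: without 4sU A the adjusted p with the letter was 0.177 against untreated and 0.0979 against uridine, and without untreated A it was 0.126. Between converted and unconverted 4sU libraries the log2 fold change of Max was -0.02 ± 0.09 for SLAM and 0.09 ± 0.09 for TUC, neither called.

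Of the Max-binding repressors of the Mxd family, Mxd1 and Mxd3 were the scarcest. Mxd1 ranged from 3.27 CPM in untreated A to 5.99 CPM in TUC B, from 97 to 188 counts, and in every comparison its groups overlapped. Mxd3 was at 5.41 CPM and 5.43 CPM in untreated cells, 5.12 CPM and 5.31 CPM with uridine, 6.11 CPM and 5.40 CPM with 4sU, 8.44 CPM and 7.29 CPM after SLAM, and 6.40 CPM and 5.61 CPM after TUC. Its SLAM libraries stood above all the others. As for Myc, the share of all tested genes with this order was not counted, so the order is not read as particular to Mxd3. The log2 fold change of Mxd3 was 0.45 ± 0.13 for SLAM against 4sU (edgeR adjusted p 0.144 without the letter and 0.00376 with it) and -0.39 ± 0.13 for TUC against SLAM (0.392, and 0.0207 with the letter). Without 4sU B the first gave 0.056 with the letter. The second gave 0.0811 without SLAM A, 0.0813 without TUC A and 0.174 without TUC B. Mxd3 overlaps Prelid1, another gene of the table, on the GRCm38.p6 annotation, and how the reads of such genes were assigned is not given in the sources used here, so its counts are uncertain.

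Mxd4 and Mxi1, the remaining Mxd family repressors, varied more between letters than between groups. Mxd4 was at 20.0 CPM and 27.5 CPM in untreated A and B and at 16.7 CPM and 24.8 CPM after TUC, its lowest A library. Its groups overlapped in all 6 comparisons. The log2 fold change of Mxd4 for TUC against 4sU was -0.23 ± 0.30 (edgeR adjusted p 0.82, and 0.0473 with the letter). That call was lost with the letter when any 1 of the 4 libraries was left out, with adjusted p between 0.0654 (without 4sU A) and 0.536 (without 4sU B, where the log2 fold change with the letter was -0.11 in place of -0.22), 0.198 without TUC A and 0.14 without TUC B. Mxi1 ranged from 18.5 CPM in uridine B to 25.8 CPM in TUC A. It was not called in any comparison with or without the letter, and its log2 fold changes without the letter lay between 0.01 and 0.08.

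Mnt, the broadly expressed Max-binding repressor, showed the widest median gap between letters. It was at 46.8 CPM in untreated A against 63.6 CPM in untreated B, and at 41.4 CPM in SLAM A against 64.5 CPM in SLAM B. It was lowest after TUC, at 33.9 CPM in A and 51.0 CPM in B, and the groups overlapped in every comparison. Within a letter TUC lay below SLAM in both, by 0.29 in A and 0.34 in B on the log2 scale. The log2 fold change of Mnt was -0.32 ± 0.32 for TUC against SLAM (edgeR adjusted p 0.867, and 0.00311 with the letter) and -0.21 ± 0.32 for TUC against 4sU (0.843, and 0.0252 with the letter). The first lost its call with the letter without TUC A (0.0574). The second lost it without any 1 of the 4 libraries, at 0.235 without 4sU A, 0.0869 without 4sU B, 0.157 without TUC A and 0.117 without TUC B. For 4sU against untreated cells, Mnt was not called with the letter (0.0663) except without untreated B (0.0494).

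Mga, the giant Max partner, showed the largest differences of the 8 genes. It was at 95.1 CPM and 103 CPM in untreated cells and 87.3 CPM and 105 CPM with uridine. With unconverted 4sU it was at 68.2 CPM and 86.4 CPM, after SLAM at 32.8 CPM and 54.3 CPM, and after TUC at 43.2 CPM and 54.4 CPM. The libraries lay at 3 levels that did not overlap, highest without 4sU, lower with unconverted 4sU and lowest with converted 4sU. This order was noticed after the values were seen, and 4.78% of all tested genes also show it. Mga was 1.77-fold lower in SLAM than in 4sU (log2 fold change -0.83 ± 0.24; edgeR adjusted p 0.141 without the letter and 1.1e-05 with it) and 1.58-fold lower in TUC than in 4sU (-0.66 ± 0.24; 0.704, and 4.4e-04 with the letter). Both calls with the letter held when any 1 of the 4 libraries was left out, but the size of the first depended on the SLAM libraries. Its log2 fold change was -0.50 without SLAM A and -1.24 without SLAM B, and -0.62 and -1.10 with the letter. TUC and SLAM overlapped, and Mga was not called between them (log2 fold change 0.16 ± 0.24; edgeR adjusted p 0.946, and 0.235 with the letter), except with the letter without SLAM B (0.44; 1.2e-04).

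Before conversion, Mga was 1.28-fold lower in 4sU than in untreated cells (log2 fold change -0.36 ± 0.24; edgeR adjusted p 0.785, and 0.0105 with the letter). It was 1.25-fold lower than with uridine (-0.32 ± 0.24; 0.809, and 0.0234 with the letter). With the letter, the call against untreated was lost without untreated A (-0.22, adjusted p 0.194), and also without 4sU A (-0.38, 0.0919) or 4sU B (-0.36, 0.0998), where the log2 fold change was about as large as with all libraries (-0.37). The call against uridine was lost without 4sU A (-0.33, 0.139), 4sU B (-0.32, 0.153), uridine A (-0.28, 0.195) or uridine B (-0.37, 0.0834), against -0.32 with all libraries. In bulk RNA, fewer cells of a type and less RNA per cell cannot be told apart.

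Mga is among the longest genes measured, with a deposited length of 13931 bases at percentile 99.5 of tested genes. Over the 2444 tested genes of 5177 bases or more, the median log2 fold change was -0.25 for SLAM against 4sU and -0.23 for TUC against 4sU. Over the 600 genes that also lie in the highest bin of new RNA it was -0.34 and -0.27. In both comparisons Mga lay below these medians, at percentile 1.1 and 1.4 of all tested genes. The part of length in its difference was not tested.

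New RNA was read from the new-to-total RNA ratio (NTR), an estimate of how much of a transcript's pool was synthesised within the 2 h of labelling. From NTR a half-life was computed as minus 2 h times ln 2 over ln(1 − NTR), which assumes steady state and labelling over the full 2 h. The 8 genes fell into 3 levels. Myc, Mga, Mxd1 and Mnt had an NTR of 0.928 or more in all 4 converted libraries, Max stood between 0.841 and 0.860, and Mxd3, Mxd4 and Mxi1 stood between 0.355 and 0.633. The median gene was at 0.566 in SLAM and 0.586 in TUC, over the 10202 genes that averaged at least 100 reads.

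Myc was almost wholly new. Its NTR was 0.984 (5% and 95% bounds of the deposited estimate, 0.969 and 0.993) in SLAM A, 0.989 (0.974 and 0.996) in SLAM B, 0.982 (0.966 and 0.992) in TUC A and 0.967 (0.953 and 0.978) in TUC B. These correspond to a half-life of 19.3 ± 1.2 min (SD, n = 2) in SLAM and 22.6 ± 2.5 min in TUC, the shortest of the 8 in SLAM. Mga followed at an NTR of 0.972 ± 0.004 in SLAM and 0.974 ± 0.005 in TUC, and half-lives of 23.4 ± 0.9 min and 22.7 ± 1.3 min. Total Mga averaged 98.9 CPM in untreated cells, 77.3 CPM with unconverted 4sU, 43.55 CPM in SLAM and 48.8 CPM in TUC. The steady state that a half-life assumes is therefore not shown for Mga. In TUC the half-lives of Myc and Mga differed by less than their spread.

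Mxd1, a repressor linked to differentiation, was at an NTR of 0.968 ± 0.010 in SLAM and 0.983 ± 0.003 in TUC, with half-lives of 24.2 ± 2.2 min and 20.4 ± 0.9 min. With few reads its bounds were wide, from 0.884 to 0.988 in SLAM A. Mnt was at 0.942 ± 0.018 and 0.956 ± 0.003, with half-lives of 29.2 ± 3.3 min and 26.7 ± 0.5 min. Max, at 0.857 ± 0.005 and 0.850 ± 0.012, had half-lives of 42.8 ± 0.8 min and 43.8 ± 1.9 min, longer than those of Myc in every library.

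Mxd4, Mxi1 and Mxd3 had the longest half-lives of the 8 members. Mxd4 was at an NTR of 0.440 ± 0.009 in SLAM and 0.482 ± 0.022 in TUC, half-lives of 144 ± 4 min and 127 ± 8 min. Mxi1 was at 0.403 ± 0.069 and 0.388 ± 0.042, half-lives of 164 ± 37 min and 171 ± 24 min. Mxd3 ranged most, with an NTR of 0.369 in SLAM A, 0.633 in SLAM B, 0.366 in TUC A and 0.504 in TUC B. Its half-lives were 132 ± 69 min in SLAM and 151 ± 45 min in TUC. In SLAM B the half-life of Mxd3 was 82.9 min, shorter than the 88.0 min at that library's median NTR. The NTR of the B library was above that of the A library for Mxd3 and Mxi1 in both chemistries. The median gene was also higher in B (0.611 against 0.523 in SLAM, 0.630 against 0.544 in TUC).

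**Figure D3:**
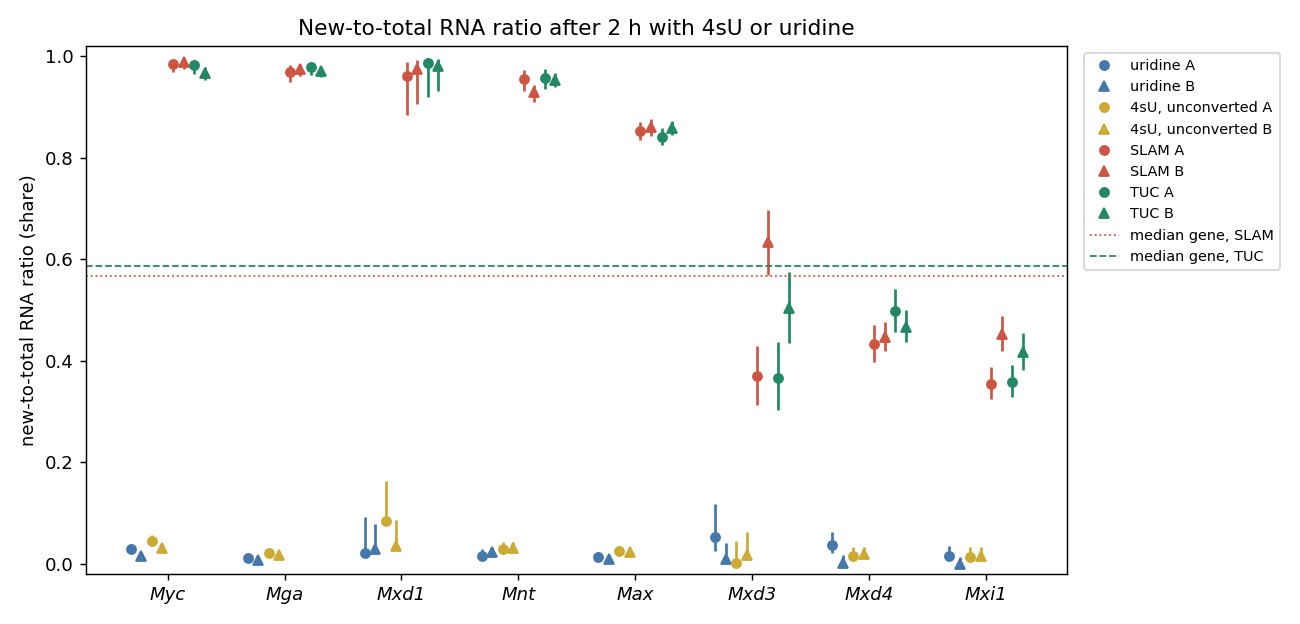
NTR of each member in the 4 converted libraries and in the uridine and unconverted 4sU libraries, with lines from the 5% to the 95% bound of the deposited estimate; the dotted and dashed horizontal lines mark the median gene in SLAM (0.566) and TUC (0.586). After conversion Myc, Mga, Mxd1 and Mnt lie at 0.928 or above, Max between 0.841 and 0.860, and Mxd3, Mxd4 and Mxi1 between 0.355 and 0.633.

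No member passed the test of NTR between the chemistries. Per library, the NTR of Mxd1 was 0.985 and 0.981 in TUC against 0.961 and 0.975 in SLAM. That of Mxd4 was 0.498 and 0.467 in TUC against 0.433 and 0.447 in SLAM, while Myc was lower in TUC. The share of all genes whose libraries separate in this way was not counted, so no difference between the chemistries is read from these orders. For TUC against SLAM, limma on log2(NTR/(1 − NTR)) called 0 of 8 members without the letter, where 0.265% of the 10202 genes were called, and 0 of 8 with the letter, where 0% were. With 0 members also at an unadjusted p under 0.05, the nearest were Mxd1 at 0.95 ± 0.42 (limma unadjusted p = 0.0549, higher in TUC) and Myc at -0.91 ± 0.45 (limma unadjusted p = 0.0817, lower in TUC). With 2 libraries per chemistry this does not show that the chemistries act alike.

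Multiplying CPM by NTR separates new from pre-existing RNA. Pre-existing Myc was at 1.47 ± 0.53 CPM in SLAM and 1.99 ± 0.75 CPM in TUC, equal to 1.7% and 2.3% of the untreated level, and pre-existing Mga was at 1.2% and 1.3%. Pre-existing Mxd1 was at 3.7% and 2.3%, Mnt at 5.9% and 3.4%, and Max at 11.7% and 13.2%. For Mxd4 56.2% and 45.4% of the untreated level remained, for Mxi1 65.6% and 67.9%, and for Mxd3 73.8% and 63.1%. The Mxd3 shares are means of unlike libraries. Pre-existing Mxd3 was at 5.33 CPM in SLAM A and 2.67 CPM in SLAM B, and at 4.06 CPM in TUC A and 2.78 CPM in TUC B. The overlap with Prelid1 leaves these values uncertain too. New Myc RNA was at 107 ± 11 CPM in SLAM and 76.5 ± 2.6 CPM in TUC. As almost all Myc RNA was new in both chemistries, the calculation itself places the difference in total Myc in new RNA. New Mga RNA was at 42.3 ± 14.9 CPM and 47.5 ± 7.5 CPM, against 98.9 ± 5.5 CPM of total Mga in untreated cells.

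**Figure D4:**
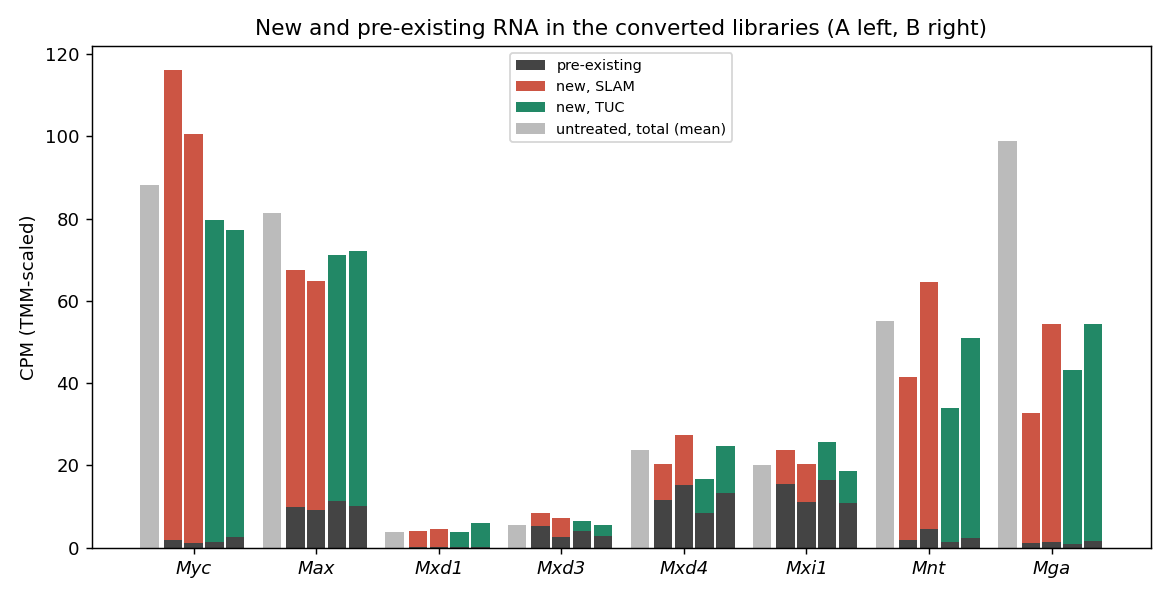
CPM of each member split into new RNA (CPM × NTR, coloured) and pre-existing RNA (CPM × (1 − NTR), dark) in the 4 converted libraries, as stacked bars from 0 with A left of B, beside a grey bar for the mean of the 2 untreated libraries. Myc, Mga, Mxd1 and Mnt are almost wholly new, and Mxd3, Mxd4 and Mxi1 hold large pre-existing parts.

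Other genes of the pathway were described from 7 lists. Without the letter, Cdkn1a, the p21 cell-cycle inhibitor that Myc represses and p53 activates, was the only called list gene in the 6 comparisons, higher in 4sU than in untreated cells (log2 fold change 1.48 ± 0.08, edgeR adjusted p 8.0e-04) and than with uridine (the same values). All counts that follow are from the fit with the letter, in which uridine against untreated called 0 genes of any list. Of all tested genes, 6.97% were called higher and 12.9% lower in 4sU against untreated, 20% and 21.6% in SLAM against 4sU, 11.6% and 14.2% in TUC against 4sU, and 10% and 10.1% in TUC against SLAM. For 4sU against uridine the shares were 6.48% higher and 13.3% lower.

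Among 13 cofactors of Myc, 0 were higher and 5 lower in 4sU against untreated, with a list median of -0.12 against 0.01 over all genes. They were Ep400 (log2 fold change -0.51), an ATPase of the TIP60 complex, Trrap (-0.33), a scaffold of histone acetyltransferases, Hcfc1 (-0.27), Wdr5 (-0.24) and Ctr9 (-0.20), the last outside the naming rule and named after its value was seen. In SLAM against 4sU, 3 were higher and 4 lower, with Ruvbl2, a DNA helicase partner of Myc, at 0.42, Kat2a at 0.30, Ep400 at -0.31 and Trrap at -0.27. In TUC against 4sU, 0 were higher and 4 lower, among them Hcfc1 (-0.51), Ep400 (-0.48) and Trrap (-0.46). In TUC against SLAM, 0 were higher and 6 lower, with Ruvbl2 at -0.25, Hcfc1 at -0.24 and Zbtb17, the Miz1 partner of Myc in repression, at -0.23. The list median was 0.09 in SLAM against 4sU, 0.06 in TUC against 4sU and -0.17 in TUC against SLAM. Gene length was not taken into account for this list.

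Of 15 genes of the Sin3 corepressor, which Mxd proteins and Mnt recruit, 1 was higher and 3 lower in 4sU against untreated. Sin3b was at 0.18, Arid4a at -0.52, Arid4b at -0.27 and Sap130 at -0.23. In SLAM against 4sU, 4 were higher and 2 lower, with Sap30 at 0.28, Sin3b at 0.26, Arid4b at -0.55 and Arid4a at -0.38. TUC against 4sU gave 4 higher and 3 lower, with Ing2 at 0.33, Sap30 at 0.32, Arid4a at -0.51 and Arid4b at -0.37. In TUC against SLAM, 0 were higher and Sap130 was lower (-0.22). The list medians lay between 0.01 and 0.12 over these 4 comparisons.

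Of the Polycomb partners of Mga, 8 of 9 were tested. In 4sU against untreated, 0 were higher and 2 lower, Pcgf6 (-0.24) and Tfdp1 (-0.18). In SLAM against 4sU, 1 was higher, Yaf2 (0.21), and 3 were lower, the ubiquitin ligase Rnf2 (-0.39), Rybp (-0.36) and Cbx3 (-0.30). In TUC against 4sU only Rybp was called (-0.23), and in TUC against SLAM Rnf2 (0.41) and Cbx3 (0.39) were higher and 0 were lower.

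Of the Myc paralogues and the Mlx arm, which binds Mxd proteins in place of Max, 4 of 5 were in the table, Mycn, Mycl, Mlx and Mlxip. Mlxip, a glucose-responsive partner of Mlx, was the only one called, lower than in 4sU in SLAM (-0.44) and in TUC (-0.41). Of 13 genes of Myc protein turnover, 3 were higher and 5 lower in SLAM against 4sU, with Gsk3a at 0.31, Huwe1 at -0.41, Gsk3b at -0.38 and Skp2 at -0.29. For TUC against 4sU, 1 was higher and 3 lower, with Stub1 at 0.18, Huwe1, a very large ubiquitin ligase, at -0.60, Usp36 at -0.28 and Gsk3b at -0.21. In 4sU against untreated, 2 were higher and 2 lower, with Trim32 at 0.19, Stub1 at 0.18, Usp28 at -0.40 and Gsk3b at -0.23, and in TUC against SLAM 1 was higher (Fbxw7, 0.25) and 1 lower (Gsk3a, -0.28).

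Of 36 genes known as Myc-activated targets, 5 were higher and 5 lower in 4sU against untreated, with Tfrc, the transferrin receptor, at -0.53, the phosphatase Cdc25a at -0.49, Polr1b at -0.35 and Gnl3 at -0.26. In SLAM against 4sU, 8 were higher and 7 lower, with Srm, which makes spermidine, at 0.38, Bop1 at 0.36, Phb2 at 0.33 and Ppat, the first enzyme of purine synthesis, at -0.37. TUC against 4sU gave 9 higher and 1 lower, with Nme1 at 0.29, Impdh2 at 0.27, Hspe1 at 0.25 and Cad at -0.31. In TUC against SLAM, 7 were higher and 3 lower, with Hspe1 at 0.44, Ppat at 0.32, Nme1 at 0.26 and Eif4e at 0.24. The list medians were 0.02, -0.04, 0.07 and 0.04 in these 4 comparisons, against at most 0.01 over all genes.

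Of 8 Myc-repressed targets, 7 were tested. Besides Cdkn1a, 0 were called in 4sU against untreated. In SLAM against 4sU, Gas1 was higher (0.26) and Cdkn1b, the p27 inhibitor, lower (-0.41). In TUC against 4sU, 0 were higher and Pdgfrb (-0.25) and Thbs1 (-0.24) were lower. In TUC against SLAM, Cdkn1b was higher (0.30) and Gas1 (-0.26) and Pdgfrb (-0.20) were lower. Against uridine, 4sU gave 0 to 1 higher and 0 to 6 lower calls per list, with Tfrc (-0.55), Cdc25a (-0.49), Arid4a (-0.49), Usp28 (-0.44) and Ep400 (-0.36) among the lower ones and Zbtb17 (0.27) among the higher.

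The genes whose pattern over the 10 libraries was most like that of each member were taken by Pearson's r of log2 CPM among 8801 genes with a mean of 10 CPM or more, as a description with no test. Mga had the closest neighbours, Nin (0.997), Kif1b (0.997) and Baz1b (0.996). Mnt had Plekhm1 (0.985) and Iqsec1 (0.98) among its nearest, and Mxd3 was followed by Trp53 (0.987), Ankrd13a (0.983) and Gm45208 (0.982). Max lay nearest to Rnf115 (0.971), Gnl3 (0.966) and Mcl1 (0.958), and Myc nearest to Mta1 (0.946), Mybl2 (0.924) and Pdlim7 (0.923). For Mxd1 the nearest were Tspan5, Tmem86a and Slpi (0.945 to 0.963), for Mxd4 Pias3, Nfatc4 and Slc6a8 (0.968 to 0.977), and for Mxi1 Fadd, Rpa1 and Rangap1 (0.966 to 0.979).

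Between members, Mnt and Mxd4 varied together most (r = 0.942 over 10 libraries), and both ran against Mxi1 (-0.899 and -0.881). These 3 genes also carry large differences between letters A and B, which all 10 libraries share. Mxd3 ran against Mga (-0.863). Myc and Max, which act as a pair of proteins, had an r of -0.07 at the RNA level. No p is given, since groups and letters set much of this variation.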

How the data were processed

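One deposited table of 10 RNA-seq libraries was used. The submitters' processing notes name STAR 2.7.10b, Bowtie2 2.3.0 and cutadapt without a version. Not given in the sources used here were build, annotation, counter, strand setting and the source of the NTR estimate. The authors deposited expected counts per gene without scaling; between 24.81 and 30.26% of genes in a library had a value that was not whole. For 8 libraries the file headers give a posterior mode and its 0.05 and 0.95 quantiles, deposited as a fraction that is not named and is taken as NTR. A length in bases was deposited without saying which. 24 columns of values per library were not used.

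Counts were rounded, filtered with filterByExpr, TMM-scaled and tested in edgeR 4.0.16 (R 4.3.3) in 1 fit over 10 libraries with a term per group, without and with the replicate letter as a block. SE is the log2 fold change over the root of the F statistic. Letters come from the sample titles and were taken to pair libraries from the correlation of A minus B differences (r 0.584 to 0.69 over 10 pairs of groups). Common dispersion fell from 0.0187 to 0.00195 with that block. NTR was tested with limma 3.58.1 on the 4 converted libraries, kept within 0.001 and 0.999. Alternatives were DESeq2 1.42.0, its size factors, library totals, other count filters, the compared groups only and leaving out each replicate. Fits were tested on simulated data. Named genes are the 8 members, up to 4 called genes of each list per comparison, and 3 genes of like pattern per member (log2 CPM, prior count 2). Members and lists were chosen with earlier results of these data known. One gene that this rule names is not reported here.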

Additional observations from a re-analysis of the deposited data

Results flagged for a closer look

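NTR was also deposited for the unconverted 4sU and the uridine libraries, which the comparisons above do not use and in which no conversion was made. For 5 of the 8 members both unconverted 4sU libraries lay above both uridine libraries, and 45.1% of 10202 genes (4600) did so too. Myc was at a mean NTR of 0.0379 with unconverted 4sU against 0.0221 with uridine, Max at 0.0233 against 0.0109, Mxd1 at 0.0599 against 0.0245, Mnt at 0.0301 against 0.0186, and Mga at 0.0183 against 0.0091. These values are small beside the NTR of 0.841 or more that the same 5 genes had after conversion. Mxd3, Mxd4 and Mxi1 did not show this order.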

How the results depend on the processing

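The counts of called members changed only with DESeq2 (1 for SLAM against 4sU) and with the letter as a block, which gave 2 for 4sU against untreated, 2 for 4sU against uridine, and 3 each for SLAM against 4sU, TUC against 4sU and TUC against SLAM; it changed no other count of members, NTR included. With the block, leaving out 1 library gave 0 to 4, 0 to 1, 2 to 3, 1 and 1 to 4 calls in these 5 comparisons in that order. Scaling by library totals turned the sign of Mxd1 in SLAM against 4sU (-0.015) and of Myc in TUC against 4sU (-0.012), both uncalled. The cause was not tested. DESeq2 size factors, the other count filters and the fit on the compared groups only turned no sign of a member.

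Leaving out 1 library turned the sign of log2 fold changes not called without the letter. Without the letter such a fit sets unequal letters against each other, and its ranges were as follows. For uridine against untreated these were Myc -0.18 to 0.17, Max -0.018 to 0.11, Mxd1 -0.12 to 0.28, Mxd4 -0.40 to 0.072, Mxi1 -0.12 to 0.21, Mnt -0.52 to 0.051 and Mga -0.18 to 0.093. For 4sU against untreated these were Myc -0.35 to 0.0011, Mxd1 -0.017 to 0.39, Mxd3 -0.0097 to 0.17, Mxd4 -0.34 to 0.33, Mxi1 -0.081 to 0.22 and Mnt -0.43 to 0.068. For 4sU against uridine these were Mxd1 -0.041 to 0.28, Mxd4 -0.17 to 0.50, Mxi1 -0.14 to 0.20 and Mnt -0.23 to 0.35. For SLAM against 4sU these were Max -0.091 to 0.055, Mxd1 -0.076 to 0.13, Mxd4 -0.32 to 0.35, Mxi1 -0.0902 to 0.21 and Mnt -0.25 to 0.40. For TUC against 4sU these were Myc -0.069 to 0.10, Mxd1 -0.14 to 0.47, Mxd3 -0.043 to 0.15, Mxd4 -0.55 to 0.15, Mxi1 -0.20 to 0.27 and Mnt -0.54 to 0.053. For TUC against SLAM these were Mxd1 -0.15 to 0.46, Mxd4 -0.52 to 0.047, Mxi1 -0.24 to 0.23, Mnt -0.65 to 0.038 and Mga -0.17 to 0.57. With the letter as a block, Mnt kept its sign in TUC against SLAM (-0.38 to -0.25) and in TUC against 4sU (-0.26 to -0.18), as did Mxd4 in TUC against 4sU (-0.31 to -0.11). The ranges that crossed 0 with the block were as follows. For uridine against untreated they were Myc -0.10 to 0.091, Max -0.033 to 0.12, Mxd3 -0.15 to 0.044, Mxi1 -0.027 to 0.12 and Mga -0.19 to 0.10. For 4sU against untreated they were Mxd4 -0.092 to 0.11 and Mxi1 -0.0029 to 0.14. For 4sU against uridine they were Mnt -0.00027 to 0.0801. For SLAM against 4sU they were Max -0.11 to 0.075, Mxd1 -0.081 to 0.14 and Mxd4 -0.10 to 0.10. For TUC against 4sU they were Myc -0.0799 to 0.10 and Mxi1 -0.058 to 0.15. For TUC against SLAM they were Mxd1 -0.004997 to 0.33, Mxi1 -0.11 to 0.10 and Mga -0.046 to 0.44. For log2(NTR/(1 − NTR)) in TUC against SLAM, the ranges were Max -0.17 to 0.024, Mxd3 -1.17 to 0.39, Mxi1 -0.38 to 0.20 and Mga -0.055 to 0.37.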
